A study of Homo sapiens with 20 samples.

Results

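The genes of the cytosolic ribosomal proteins were followed in 10 human lines of T-cell acute lymphoblastic leukemia, T-ALL, under a gamma-secretase inhibitor. A gene was taken when its symbol in the platform annotation began with RPL or RPS and a digit, or was RPLP0, RPLP1, RPLP2 or RPSA. RPS6K kinases (9 symbols) and pseudogene symbols (3) were left out. A gene also had to have a probe set, the group of oligonucleotides that measures a transcript, that named no other gene. This gave 58 of the 11963 genes with such a probe set, 22 of the small and 36 of the large ribosomal subunit, each read from its brightest probe set. Another 16 genes of the family, among them RPL5, RPL10 and RPL13A, lay only on probe sets that also name another gene and are given no values here. No probe set of RPLP0, RPSA, RPL22L1 or RPL7L1 was analysed here.

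The arms were 100 nM CompE for 72 h and the vehicle DMSO for 72 h, with 1 array per line and arm, 20 arrays in all. They were RPMI8402, PF382, P12-ICHIKAWA, MOLT3, KOPTK1, HPB-ALL, DND41, CUTLL1, CCRF-CEM and ALL-SIL. The series' description gives activating NOTCH1 mutations for them. Gamma-secretase is the membrane protease that releases the active part of NOTCH receptors, and the comparison asked which transcripts respond when that release is blocked. The arrays had medians of 54.7 to 74.8 units of MAS5 signal, a linear brightness, and the highest signal on any array was 17617. The lines read as T cells by CD3D, which averaged 7437 ± 1688 under CompE and 7860 ± 1641 under DMSO (SD, n = 10 each). All 9 T-cell markers were above the limit for dim genes in their mean over the 20 arrays, but not all in every line. The lowest signals of CD2 were 2.61 under CompE and 20.7 under DMSO. Those of CD5 were 26.6 under CompE and 11.2 under DMSO, and those of CD28 were 15.4 under CompE and 18.9 under DMSO. Summed myeloid markers stayed at 18.2 to 71.6 under CompE and 26.7 to 64.9 under DMSO, those of erythroid, epithelial and fibroblast cells reached at most 236 under CompE and 217 under DMSO, and summed B-cell markers reached 1960.4 under CompE and 2600.4 under DMSO. The treatment was visible in the NOTCH target HES1, which fell by 1.71 on the log2 scale, in 10 of 10 lines (limma adjusted p = 0.00775), and in NOTCH3, which fell by 1.34 (limma adjusted p = 0.00692). Averaged over all probe sets of each gene, the changes were -0.679 for HES1 and -0.637 for NOTCH3 (limma adjusted p = 0.044 and 0.0183).

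Ribosomal proteins are the protein part of the ribosome and are needed in roughly equal numbers, and their mRNAs are usually regulated as a block. Most of these mRNAs begin with a cytosine followed by a run of pyrimidines, the terminal oligopyrimidine (TOP) motif, through which the mTOR pathway and LARP1 control their translation. MYC, itself a NOTCH1 target in T-ALL, raises transcription of genes for ribosome production. Several members, RPL22, RPL5 and RPL10 among them, are recurrently altered in T-ALL.

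The starts of these genes show what most members share and what some core members and some paralog copies lack. The windows printed here are the 10 bases before and the 20 bases from the annotated transcription start, from RefSeq (GRCh38.p14), and capitals mark any of 4 words on the sense strand, which can overlap: the word CTTTTC, the word CTTTCC, the word CTCTTT and the word CTCTTC. Where a gene had several listed starts, one that held a word was taken first. The first 6 windows belong to members with large changes or a fixed interest whose starts hold a word, and the next 3 to such members without one. On the plus strand, RPL19 lay at chr17:39200313-39200342, RPL31 at chr2:101002279-101002308, RPL34 at chr4:108620566-108620595 and RPS27 at chr1:153990752-153990781. On the minus strand, RPL39 lay at chrX:119791611-119791640 and RPS6 at chr9:19380217-19380246. Also on the minus strand were RPL32 at chr3:12841546-12841575, RPL22 at chr1:6199576-6199605 and RPS4X at chrX:72277229-72277258. The other 4 windows are paralog copies, RPL26L1 at chr5:172958719-172958748 on the plus strand and, on the minus strand, RPS27L at chr15:63157458-63157487, RPL10L at chr14:46651762-46651791 and RPL36AL at chr14:49620607-49620636.
RPL19: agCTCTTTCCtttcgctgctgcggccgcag
RPL31: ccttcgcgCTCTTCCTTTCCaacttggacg
RPL34: cttttttcttcCTCTTCcggggacgttgtc
RPS27: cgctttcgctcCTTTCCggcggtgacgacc
RPL39: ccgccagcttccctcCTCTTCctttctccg
RPS6: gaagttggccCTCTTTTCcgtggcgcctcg
RPL32: acgacccatcagcccttgcgcgccaccgtc
RPL22: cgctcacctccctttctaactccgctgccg
RPS4X: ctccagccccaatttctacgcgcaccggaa
RPL26L1: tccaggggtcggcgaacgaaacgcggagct
RPS27L: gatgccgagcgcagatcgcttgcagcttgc
RPL10L: gtagttaagagagcgcattttgacttcgag
RPL36AL: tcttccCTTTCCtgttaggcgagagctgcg

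Of the 50 members with a RefSeq promoter entry, 29 (58.0%) held such a word near a listed start, against 1748 of 27305 genes (6.4%). Among core members it was 27 of 45 (60.0%), and among paralog copies 2 of 5, RPL36AL and RPS4Y1. The words were chosen to stand for TOP starts, so this describes the annotation and tests nothing. CCGGAAG, the core of the site bound by ETS factors, was found on either strand of the 300-base promoter in 18 members (36.0%) and in 12.2% of all genes. CACGTG, the E-box that MYC can bind, which reads the same on both strands, was found in 3 members (6.0%) and in 8.77% of all genes. No match says only that these letters are not in this window.

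No ribosomal protein gene passed the test in either direction. Of the 58 members, 56 lay above the limit for dim genes, a mean signal of about 32.5. With limma over all 7695 genes tested, cell line as a block and Benjamini-Hochberg adjustment at 0.05, 0 of 56 members were called higher and 0 lower under CompE, where 7.17% of all tested genes were called, 3.94% higher and 3.24% lower. At an unadjusted p under 0.05, limma counted 20 of the 56 members higher and 0 lower, beside 15.2% and 9.93% of all tested genes. The count was 0 higher and 1 lower with median centring, and 2 higher and 7 lower under quantile normalization. With the ACTB covariate described later it was 0 higher and 2 lower. Without the 3 lines with another medium label, also described later, it was 0 higher and 1 lower. An exact sign-flip permutation test over the 10 pairs gave 11 higher and 0 lower at that level, beside 14.6% and 9.49% of all tested genes. After adjustment that test called 0 of the 7695 genes, so it says nothing about the members there. The smallest adjusted p of a member was 0.0775 in limma, for RPL19. Arrays scaled to one mean give relative signals, so a change in total RNA per cell cannot be seen in them.

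The changes were small, mostly above 0 on the authors' scaling and mostly below 0 under quantile normalization. Over the 56 tested members the median log2 change, CompE minus DMSO, was 0.13, beside 0.044 over all tested genes, and it was 0.054 with arrays centred on their medians (all genes -0.028) and -0.016 under quantile normalization (all genes 0.026). Members above 0 numbered 44 and members below 0 numbered 12, while 58.9% of all tested genes were above 0; under quantile normalization the counts were 21 and 35. The estimates ran from -0.17 for RPL26L1 to 0.23 for RPL32, a fold of 1.17. For the 50 core members the 95% intervals stayed between -0.37 and 0.40. The median standard error of members was 0.075, against 0.12 over all tested genes.

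The 335 tested genes outside the family in the top 5% of mean signal, most of them dimmer than the 49 brightest core members, had a median change of -0.002, with 12 called higher and 9 lower. Signals of 49 core members lay between 1719 and 16119, close to the top of the range of these arrays, and 49 of the 100 brightest tested genes were members. Whether such probe sets still respond in proportion to RNA was not tested.

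**Figure D1:**
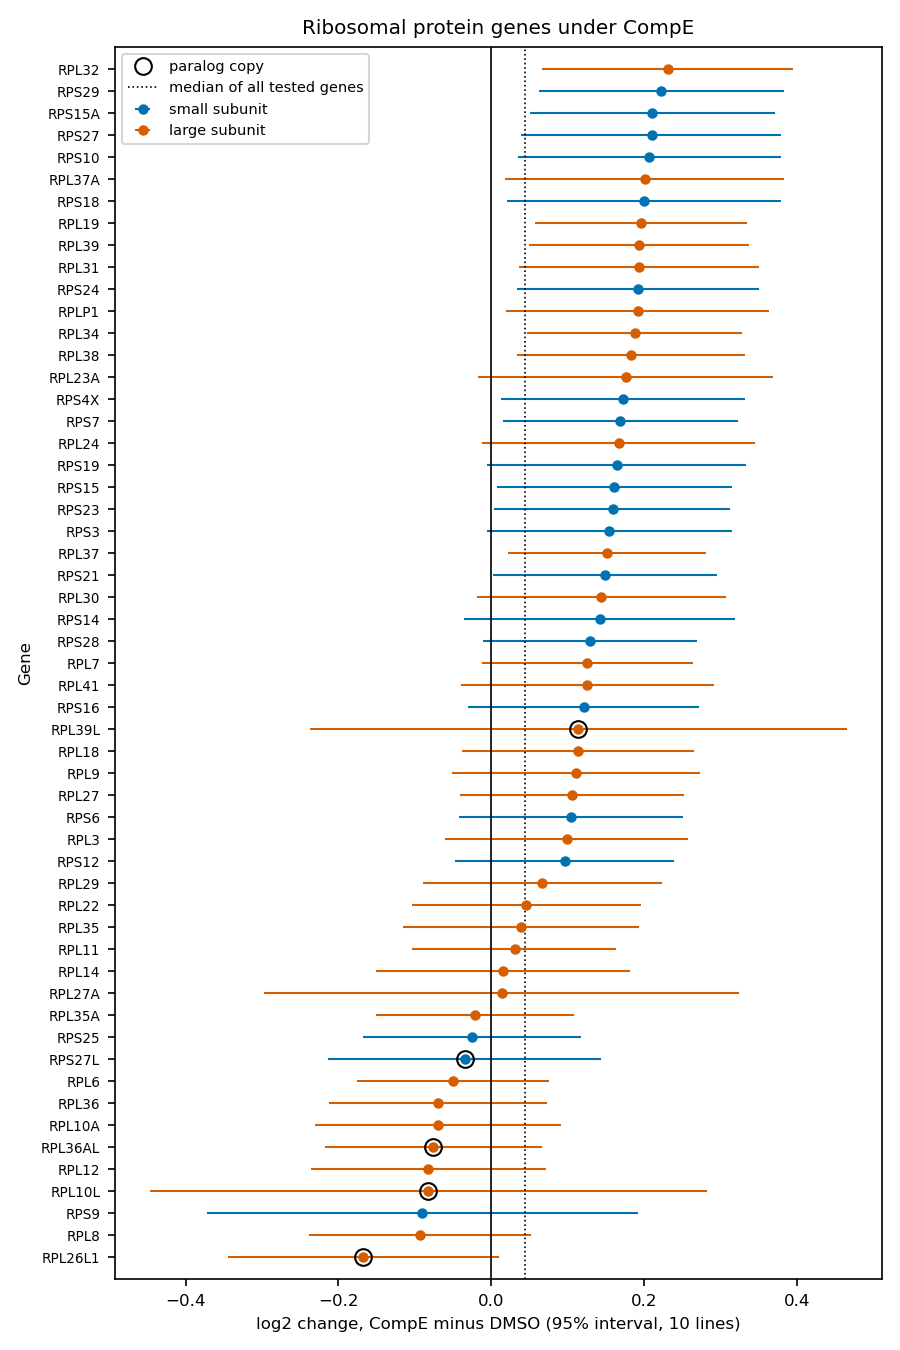
Log2 change of each tested ribosomal protein gene, CompE minus DMSO, with its 95% interval over 10 cell lines from limma; RPS4Y1 is left out of the plot. Colours mark the subunit, rings mark paralog copies and the dotted line is the median of all tested genes (0.044). Most core members sit above 0, where the median of members was 0.13 (-0.016 under quantile normalization), and RPL26L1 sits lowest at -0.17.

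Small-subunit genes had a median change of 0.16, with 19 of 22 above 0, and large-subunit genes one of 0.11, with 25 of 34 above 0; under quantile normalization the medians were -0.001 and -0.028. Of the 8 largest positive changes seen in at least 8 lines, RPS27 was the only small-subunit gene. RPS29 and RPS15A had changes of 0.223 and 0.211, each positive in 7 lines (limma adjusted p = 0.0819 and 0.0969). RPS27, a zinc finger protein of the small subunit, had signals of 6383 to 12302 under CompE, with a median of 9079, against 5709.5 to 10738 with a median of 7655 under DMSO. The ranges overlapped over most of their length. Its log2 change was 0.21 ± 0.080 (SE, 10 pairs; limma adjusted p = 0.117), positive in 8 of 10 lines, and it was 0.052 under quantile normalization.

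RPS6, the substrate of S6 kinase, ran from 6126 to 11933 under CompE, with a median of 8801, against 6590 to 11403 with a median of 8173 under DMSO. The change of 0.10 ± 0.069 did not pass the test (limma adjusted p = 0.361), and it was -0.077 under quantile normalization. RPS19, the gene most often mutated in Diamond-Blackfan anaemia, had a change of 0.16 ± 0.080 (limma adjusted p = 0.212), which was -0.016 under quantile normalization. RPS4X, the X-linked copy of a gene pair, had a change of 0.17 ± 0.075 (limma adjusted p = 0.165; 0.035 under quantile normalization). None of these changes was distinguishable from the spread between lines after adjustment.

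RPS9, a small-subunit protein near the mRNA entry, was below 0 in 8 lines and had the widest standard error of the bright core members. Its signals were 1719 to 9138 under CompE, with a median of 5478, against 3349 to 7816 with a median of 5737 under DMSO. DND41 held the lowest signal in both arms, 1719 under CompE and 3349 under DMSO. KOPTK1 had 9138 under CompE and 4123 under DMSO, a change of 1.15. The fitted change was -0.090 ± 0.13 (limma adjusted p = 0.721), and it was 0.006 without DND41, -0.227 without KOPTK1, -0.181 under quantile normalization and -0.338 with the ACTB covariate. A further probe set of the gene gave -0.068, below 0 in 8 lines.

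RPL19, RPL31 and RPL39 lie along or around the tunnel through which the new protein leaves the ribosome, as do RPL22 and RPL35, which had changes of 0.046 and 0.039. RPL19 had signals of 5927 to 12130 under CompE, with a median of 7925, against 5532 to 9748 with a median of 6987 under DMSO. It was higher under CompE in every line except DND41, where it had 6595 under CompE and 7292 under DMSO. The change was 0.20 ± 0.066, a fold of 1.15 (limma adjusted p = 0.0775; 0.046 under quantile normalization). RPL31 had 0.19 ± 0.074 (limma adjusted p = 0.119; -0.015 under quantile normalization). RPL39 had 0.19 ± 0.068 (limma adjusted p = 0.0908; 0.045 under quantile normalization). These 3 genes, RPL34 and RPS27 hold a capitalised word in the windows printed earlier.

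RPL32 had the highest estimate of all members. It ran from 5637 to 11393 under CompE, with a median of 7867, against 4974 to 9927 with a median of 6880 under DMSO. MOLT3 had 10939 under CompE and 7044 under DMSO, and P12-ICHIKAWA had 8619 under CompE and 5692 under DMSO. CCRF-CEM and DND41 were the lines below 0. Its log2 change was 0.23 ± 0.078 (limma adjusted p = 0.0782; 0.084 under quantile normalization), and no start listed for it holds one of the words.

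The other members of this kind were RPL34 at 0.19 ± 0.067 and RPL37 at 0.15 ± 0.061, each positive in 9 of 10 lines, with limma adjusted p of 0.0926 and 0.135. Under quantile normalization they had 0.063 and 0.002. RPL30 had 0.14 ± 0.077 in 8 lines (limma adjusted p = 0.254; -0.029 under quantile normalization). RPLP1, an acidic protein of the stalk that recruits translation factors, had a change of 0.19 ± 0.082 (limma adjusted p = 0.155; 0.025 under quantile normalization). Its signals were 6128 to 12419 under CompE and 5661 to 9895 under DMSO. In HPB-ALL, KOPTK1, MOLT3 and P12-ICHIKAWA its change was 0.40 to 0.56, and in the other 6 lines it was -0.13 to 0.14.

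RPL11, which binds MDM2 when ribosome assembly is disturbed, had nearly equal signals in both arms, 5008 to 7526 under CompE against 4677 to 7715 under DMSO. Its change of 0.031 ± 0.063 (limma adjusted p = 0.804) was above 0 in 5 lines, and it was -0.041 with median centring and -0.061 under quantile normalization. RPL22, deleted in part of T-ALL cases and needed for the development of alpha-beta T cells in mice, had 4287 to 7992 under CompE against 4871 to 7816 under DMSO. Its brightest probe set gave 0.046 ± 0.071 (limma adjusted p = 0.731; -0.025 with median centring and -0.047 under quantile normalization), positive in 5 lines. Its 5 probe sets ran from -0.23 to 0.046 and so did not share a sign.

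Of the core members with negative values, RPL10A and RPL36 were below 0 in 8 of 10 lines. RPL10A, a large-subunit protein, had 3430 to 7547 under CompE, with a median of 5319, against 4149.7 to 6803 with a median of 5421 under DMSO. The change in DND41 was -0.63, and in MOLT3 and P12-ICHIKAWA it was 0.28 and 0.29, so the lines spread further than the mean of -0.069 ± 0.076 (limma adjusted p = 0.612). It was -0.007 without DND41, -0.131 under quantile normalization and -0.162 without the 3 lines with another medium label described later. RPL36 had -0.069 ± 0.067 (limma adjusted p = 0.56; -0.146 under quantile normalization).

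Over all members, 9 were higher under CompE in at least 8 lines, where 19.7% of all tested genes were, and 4 were lower in at least 8 lines, where 12.9% were. No member moved the same way in all 10 lines, as 3.37% of all tested genes did. The shares are near or below the background of the whole array.

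Paralog copies encode a near relative of a core protein, and some are expressed in few tissues. Of 7 such members 6 were tested, with a median change of -0.055 and 2 above 0, against a median of 0.14 and 42 of 50 above 0 among core members (-0.045 and -0.015 under quantile normalization). With the ACTB covariate the medians were 0.088, with 4 of 6 above 0, and 0.091. RPL26L1, the copy of RPL26, had 447 to 1235 under CompE, with a median of 815, against 502 to 1309 with a median of 982 under DMSO. RPMI8402 had 671 under CompE and 949 under DMSO, and KOPTK1 had 800.4 under CompE and 1119 under DMSO. P12-ICHIKAWA and PF382 were higher under CompE and the other 8 lines lower. The change was -0.17 ± 0.084 (limma adjusted p = 0.225).

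RPS27L, a copy of RPS27 that p53 induces, had 1005 to 2384 under CompE, with a median of 1556, against 964 to 2685 with a median of 1426 under DMSO. Its change was -0.034 ± 0.084 (limma adjusted p = 0.84), above 0 in 5 lines and below in 5. KOPTK1 had the lowest change at -0.54, with 1839 under CompE and 2685 under DMSO, and without that line the fitted change was 0.022. RPL36AL, a copy of RPL36A, had a change of -0.076 ± 0.067 (limma adjusted p = 0.512). RPL10L, known for its role in the testis, was the dimmest tested member at a mean log2 signal of 5.85, with 15.7 to 80.1 under CompE against 32 to 77.0 under DMSO and a change of -0.082 ± 0.17 (limma adjusted p = 0.81). That value was 0.224 with the ACTB covariate described later and 0.036 without KOPTK1.

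RPL39L, the copy of RPL39 that is best known from male germ cells and some tumours, differed between lines by orders of magnitude. Under CompE it had 185 in CUTLL1, 238 in CCRF-CEM, 254 in KOPTK1, 199 in P12-ICHIKAWA, 211 in PF382 and 254.5 in RPMI8402, but 4.28 in ALL-SIL, 7.30 in HPB-ALL, 33.6 in DND41 and 32.2 in MOLT3. Under DMSO it had 276 in CUTLL1, 223 in CCRF-CEM, 233 in KOPTK1, 237 in P12-ICHIKAWA, 217 in PF382 and 391.5 in RPMI8402, but 3.20 in ALL-SIL, 3.07 in HPB-ALL, 16.9 in DND41 and 2.39 in MOLT3. Thus 6 lines lay at 184.8 or above in both arms and 4 at 33.6 or below, near or under the limit for dim genes. The treatment change was 0.11 ± 0.17 (limma adjusted p = 0.715), and it was -0.027 without MOLT3, the line with the largest change at 1.39. With a pseudocount of 1 in place of 16 it was 0.432, and with 64 it was -0.011. RPL3L, a muscle copy of RPL3, stayed under the limit, with 4.33 to 17.9 under CompE and 1.501 to 27.1 under DMSO.

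**Figure D2:**
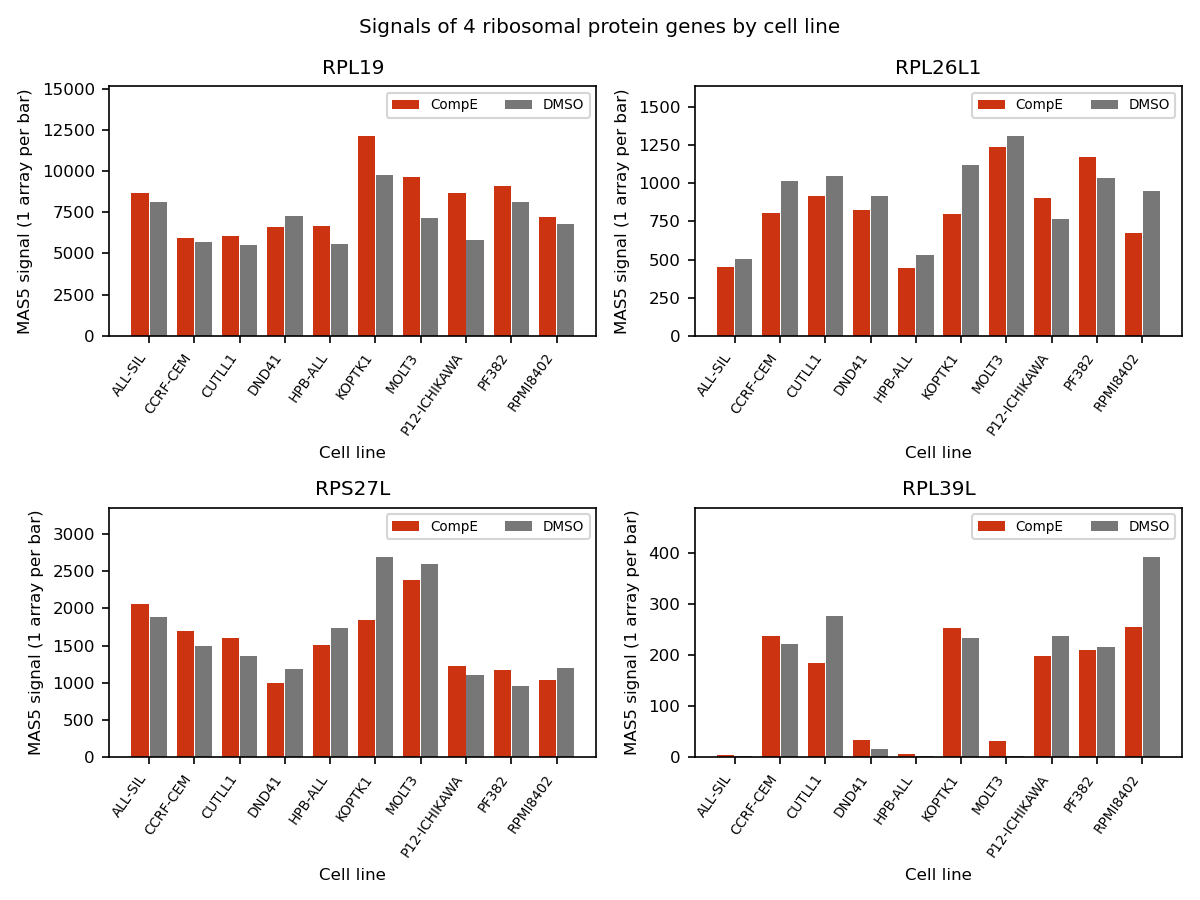
MAS5 signal (linear, 1 array per bar) of 4 ribosomal protein genes in each cell line, CompE left of DMSO. RPL19 was higher under CompE in all lines but DND41, RPL26L1 was lower in 8 lines, RPS27L went either way, and RPL39L was at 33.6 or below in both arms in ALL-SIL, DND41, HPB-ALL and MOLT3.

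Outside such copies the bright core members varied less between lines than all tested genes, nearly all of which were dimmer. Their spread was not compared with that of genes of like brightness. The SD of the log2 signal over the 10 DMSO arrays was 0.15 (RPL6) to 0.37 (RPS9) for the 49 bright core members, with a median of 0.26, against a median of 0.46 over all tested genes. The 5 widest tested members were RPS4Y1, which is Y-linked and whose levels are not given, RPL39L, RPL27A, RPS27L and RPL26L1. RPL27A is a core gene, but its only probe set of its own was dim, with 26.5 to 253 under CompE and 48.3 to 214.5 under DMSO. RPLP2, the other acidic stalk protein, lay just under the limit for dim genes at a mean log2 signal of 5.44, with 8.88 to 95.6 under CompE and 6.43 to 104 under DMSO on the brighter of its own probe sets; its SD under DMSO was 0.74. Between-line differences took 77.2% of the sum of squares of core members, treatment 5.76% and the residual 17.1%, against 87.2%, 2.98% and 9.78% over all tested genes.

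On the authors' scaling the family differed from line to line, with most members of a line on the same side of 0 in the lines at either end. The median change of the 56 members was 0.43 in MOLT3, 0.36 in HPB-ALL, 0.36 in P12-ICHIKAWA and 0.27 in KOPTK1. In RPMI8402 it was 0.070, in ALL-SIL 0.006, in PF382 -0.011, in CUTLL1 -0.034 and in CCRF-CEM -0.041. In DND41 it was -0.21, with 55 of 56 members lower under CompE, while 52 of 56 were higher in P12-ICHIKAWA. The SD of these medians over lines was 0.22, against 0.035 for the medians of all tested genes. Under quantile normalization this SD was 0.025, and the medians of all lines lay between -0.073 and 0.009, with -0.033 in DND41 and -0.012 in MOLT3. That method gives all arrays the same set of values, and members fill much of its top end. With arrays centred on their medians the SD was 0.22, with -0.37 in DND41 and 0.41 in P12-ICHIKAWA. On the authors' scaling the small- and large-subunit medians lay furthest apart in HPB-ALL, at 0.44 and 0.27, and next in P12-ICHIKAWA, at 0.44 and 0.32; in MOLT3 they were 0.50 and 0.42 and in DND41 -0.17 and -0.26.

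**Figure D3:**
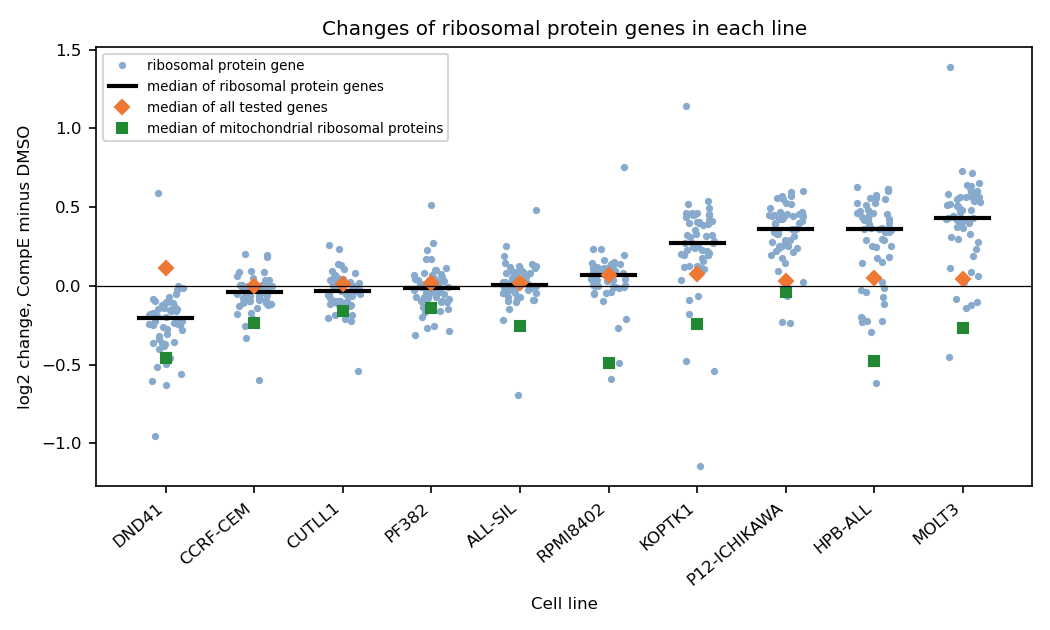
Log2 change, CompE minus DMSO, of each tested ribosomal protein gene other than RPS4Y1 (points) in each cell line, lines ordered by their median (bar). Diamonds are medians of all tested genes and squares those of mitochondrial ribosomal proteins. On the authors' scaling, member medians run from -0.21 in DND41 to 0.43 in MOLT3 (-0.033 and -0.012 under quantile normalization), diamonds from -0.003 to 0.11, and each square lies below its bar.

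Other measures of these arrays differed between lines too, and their part in the member medians was not tested except where a fit is given. The 335 bright genes outside the family had medians of 0.12 in MOLT3, 0.14 in P12-ICHIKAWA and 0.033 in HPB-ALL, but -0.071 in KOPTK1 and -0.11 in DND41. The ratio of 3-prime to 5-prime signal of the ACTB control probe sets, a sign of RNA integrity and labelling, averaged 2.28 ± 2.64 under CompE and 1.47 ± 0.69 under DMSO (SD, n = 10 each). It was higher under CompE in 9 lines and reached 9.76 in KOPTK1, against 3.32 there under DMSO. With the log2 of that ratio as a covariate the median of members was 0.091 and 0 members were called. In MOLT3, P12-ICHIKAWA and CCRF-CEM the DMSO label gives the medium the name of the cell line RPMI8402, which the CompE label does not. Without these 3 lines the median was 0.065, beside 0.055 over all tested genes. Leaving out DND41 gave 0.16 with 32 members at an unadjusted p under 0.05, leaving out MOLT3 gave 0.090 with 6, and leaving out HPB-ALL gave 0.10 with 7.

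Summed over the 56 tested members, the brightest probe set of each held 5.02 ± 0.77% of the array's signal under CompE and 4.68 ± 0.57% under DMSO (SD, n = 10 each). Other probe sets of the family entered only the array's total, so this is not the share of the whole family. The share was higher under CompE in 6 of 10 lines. KOPTK1 had 6.27% under CompE and 5.30% under DMSO, and MOLT3 had 5.97% under CompE and 4.81% under DMSO. DND41 had 4.08% under CompE and 4.59% under DMSO. No test is given for this sum, and the arms overlapped.

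**Figure D4:**
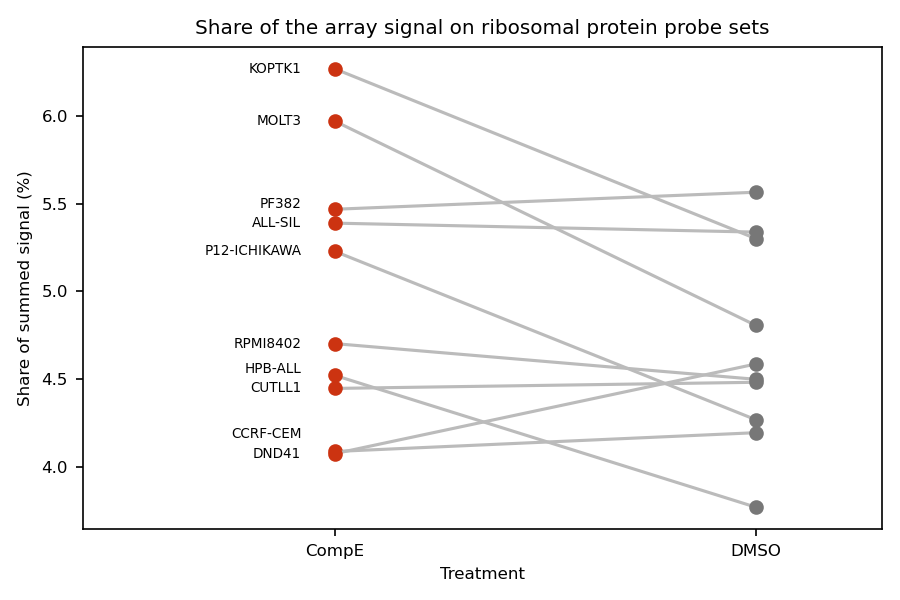
Share of the summed array signal, in percent, held by the brightest probe set of each of the 56 tested ribosomal protein genes. CompE is left and DMSO right, with a line joining the arrays of each cell line (axis does not start at 0). KOPTK1, MOLT3, P12-ICHIKAWA and HPB-ALL slope down from CompE to DMSO and DND41 slopes up.

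Probe sets of the same gene did not always give the same value. Of the 21 members with another probe set above the limit, 8 had all of them within 0.1 of the brightest, and the largest difference was 0.47. RPS10 had 0.19, 0.21 and 0.21 on its 3 bright probe sets and -0.076 on a dim one. RPL37A had 0.20 on its brightest, -0.27 on a dimmer one that was below 0 in 8 lines, and 0.30 on the dimmest. RPS21 had 0.15 and -0.29, the dimmer below 0 in 8 lines. RPL31 had 0.19 on its brightest, -0.19 on a dimmer one that was below 0 in 8 lines, and 0.046 on the dimmest. RPL24 had 0.17 on a probe set prone to cross-hybridisation and -0.025 on one of a plain type. Of the probe sets used, 17 were of the type that may bind other sequences and 26 of the type shared by several transcripts, and family members with processed pseudogenes may share signal. With probe sets of the plain type where a gene had one, the median of the 53 members tested was 0.11 with 17 positive and 3 negative changes at an unadjusted p under 0.05.

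The TOP-like words can be set beside the changes as a description. The 26 tested core members with a word near the start had a median change of 0.16 on the authors' scaling, with 24 above 0, and the 18 without one had 0.10, with 13 above 0; the 2 ranges overlapped.

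Genes with a related role differed in their values. The counts called in these lists stand beside 3.94% of all tested genes called higher and 3.24% called lower. FAU, which encodes the small-subunit protein eS30 as a fusion, had a change of 0.063 ± 0.066 (limma adjusted p = 0.594; -0.009 with median centring and -0.033 under quantile normalization). Of 16 tested genes among 22 other TOP mRNAs, 1 was called higher and 0 lower, with a median of 0.052. The one was TPT1, at 0.27 ± 0.076 in 9 lines (limma adjusted p = 0.0465). That call was lost with median centring, under quantile normalization, with the ACTB covariate and without the 3 lines with another medium label. With 1 line left out it was kept only without ALL-SIL, CCRF-CEM or KOPTK1. Of the dedicated carriers and assembly partners, 7 of 11 were tested, 2 were called lower and 0 higher. They were PDCD2, the carrier of uS5, which fell by 0.35 ± 0.084 (limma adjusted p = 0.0229), and RRS1, which helps to place the 5S particle and fell by 0.395 ± 0.11 (limma adjusted p = 0.0383). Neither was called without DND41, without HPB-ALL, without MOLT3 or without RPMI8402, and RRS1 was also lost without ALL-SIL, with the ACTB covariate and without the 3 medium lines.

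Of 11 tested regulators, 2 were called lower and 0 higher, beside 3.24% and 3.94% of all tested genes. MYC fell by 1.499 ± 0.28 (limma adjusted p = 0.0107; 0.057 with the ACTB covariate), with 629 ± 295 under CompE and 1815 ± 964 under DMSO (SD, n = 10 each). EIF4EBP1, the mTOR-controlled repressor of cap-dependent translation, fell by 1.055 ± 0.24 (limma adjusted p = 0.0186), and was not called without DND41. MYC was lower in 9 lines and had 889 under CompE and 609 under DMSO in P12-ICHIKAWA. KOPTK1, with the largest MYC change at -3.85 and an ACTB ratio of 9.76 under CompE, had a member median of 0.27 on the authors' scaling. P12-ICHIKAWA, with MYC at 0.53, had one of 0.36. MYC changes and member medians were -1.85 and -0.21 in DND41, -2.46 and -0.011 in PF382, and -1.90 and 0.070 in RPMI8402. They were -1.59 and 0.36 in HPB-ALL, -1.31 and 0.006 in ALL-SIL, and -1.14 and -0.041 in CCRF-CEM. In MOLT3 they were -0.97 and 0.43, and in CUTLL1 -0.455 and -0.034. A link between these values was not tested. LARP1, RPS6KB1 and RPS6KA3 had changes of -0.22, -0.34 and -0.32 with limma adjusted p of 0.125, 0.0674 and 0.0727. Of the 11 regulators 4 were above 0, TSC1 at 0.213, TSC2 at 0.147, RPS6KA1 at 0.116 and RPS6KB2 at 0.046. Their limma adjusted p were 0.185, 0.448, 0.52 and 0.908.

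The mitochondrial ribosomal proteins, which build the separate ribosome of mitochondria, gave other counts in the same fit. Of all tested genes, 3.24% were called lower and 3.94% higher. Of the cytosolic family it was 0 of 56, with a median change of 0.13 (-0.016 under quantile normalization). Of 49 tested mitochondrial genes, 19 were called lower and 0 higher, 46 were below 0 and the median change was -0.30 (-0.301 under quantile normalization). The number called lower was 21 with median centring, 20 under quantile normalization and 10 with the ACTB covariate. It was 8 without the 3 lines with another medium label, 6 without HPB-ALL, 7 without DND41, 7 without RPMI8402, 11 without ALL-SIL, 12 without PF382 and 25 without KOPTK1. Calls over all 7695 genes moved the same way, to 298, 181, 214, 183, 398, 355 and 1031 in those 7 fits, against 552 with all lines. On the authors' scaling the median of the mitochondrial genes, -0.49 to -0.042, lay below 0 and below that of the cytosolic genes in all 10 lines. These medians per line were not computed under other scalings. Of 46 tested genes with EIF or EEF symbols, taken as translation initiation and elongation factors, 7 were called lower and 0 higher. Their median change was -0.066. The 7 include EIF4EBP1, a repressor of translation that was taken in by its symbol and is also counted among the regulators. In the same fits the number called lower was 3 without DND41, 4 without HPB-ALL or RPMI8402 and 11 without KOPTK1.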

How the data were processed

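RNA of 20 arrays (10 lines, CompE and DMSO) was analysed from signals deposited by the authors. Per the submitters' processing notes they are MAS5 intensities; they are linear, and no version or setting is stated there. A mean trimmed by 2% at either end came to 250 on every array, a scaling that was kept. Of 22277 probe sets, 62 were controls; 19070 named 1 gene in the platform annotation, 1043 several and 2164 were not listed, and 19058 matched RefSeq by gene identifier (0 symbols updated).

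For each gene the brightest probe set was analysed as log2(signal + 16), which understates folds of dim genes. Genes dimmer than the 40th percentile of the mean were left out. Changes, CompE minus DMSO, were fitted with limma 3.58.1 in R 4.3.3, using a fixed block for the line, an intensity trend and Benjamini-Hochberg adjustment over 7695 genes, two-sided; the code was tested on simulated data. Pairs follow the labels, which name each array's line, and each of the 10 CompE arrays was most like its own line's DMSO array (correlation 0.918 to 0.984). The sign-flip test ran over 1024 patterns, and its smallest p is 0.00195. The labels do not say whether arrays came from separate cultures. The p-values measure the spread between the 10 lines, which serve as replicates.

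The members, lists and tests were chosen with earlier results of these data known. Members were named when past the threshold, when among the 8 largest changes each way seen in at least 8 lines, when in a fixed set (T-ALL genes, paralogs, stalk, RPS6, RPS19, RPL19), when among the 5 widest over DMSO arrays or when next to the dim limit; others were chosen after their values were seen. The alternatives changed the pseudocount, the filter, the probe sets, the scaling, the model, the ACTB covariate and the lines included. Some planned items are not reported here.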

Additional observations from a re-analysis of the deposited data

Results flagged for a closer look

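Among 72 groups of 10 values (signals per arm and log2 changes of the named members, member medians and signal shares), 2 held a line far from the others by Dixon's criterion. Chance alone gives about 1 in 20 groups such a value. The log2 change of RPL10A was -0.63 in DND41, where the next lowest line had -0.165. The DMSO signal of RPL36AL was 4430.4 in KOPTK1, where the next highest line had 3267.8.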

How the results depend on the processing

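Under 24 alternatives, 10 of which left out 1 line, no member was called higher, and none was called lower except under quantile normalization, where 1 was (RPL12, limma adjusted p = 0.0334). The median change of members ran from -0.016 under quantile normalization to 0.16 without DND41, and from 0.090 to 0.16 over the fits that left out 1 line. Without the line as a block, 0 members and 0 of all genes were called and the member median stayed 0.13, while MYC, HES1 and NOTCH3 lost their calls (adjusted p = 0.829, 0.903 and 0.977). They were also over 0.05 after adjustment in the sign-flip test (0.0769, 0.058 and 0.0769), which called 0 of all genes, and MYC was with the ACTB covariate (0.057). Of 670 results of single genes, 631 kept their sign and side of the threshold, 7 lost their call and 32 changed sign. Sign changes were RPL39L at -0.011 with a pseudocount of 64 and -0.014 without the 3 medium lines; RPL22 at -0.057 over all its probe sets, -0.229 on its plain one, -0.025 with median centring, -0.047 under quantile normalization and -0.031 without the medium lines; and RPL11 at -0.041, -0.061, -0.006 and -0.009 with median centring, quantile normalization, the ACTB covariate and no medium lines. With median centring, quantile normalization and the ACTB covariate, RPL27A had -0.058, -0.003 and -0.084, and FAU -0.009, -0.033 and -0.029. Quantile normalization alone turned RPL31 (-0.015), RPL30 (-0.029), RPS6 (-0.077) and RPS19 (-0.016), and the ACTB covariate turned RPS27L (0.104) and RPL10L (0.224). With 1 line left out, RPS9 ran from -0.227 to 0.006, RPL27A from -0.048 to 0.093, RPS27L from -0.069 to 0.022, RPL39L from -0.027 to 0.193, RPL10L from -0.174 to 0.036, RPS4Y1 from -0.062 to 0.243, RPL10A from -0.110 to -0.007, RPL36 from -0.113 to -0.045, RPL11 from 0.002 to 0.075 and RPL22 from 0.003 to 0.092. The causes were not tested. Low signals over background limit RPL10L, RPL39L, RPL27A, RPLP2 and RPL3L, and the number of lines limits every interval.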
